A study of Homo sapiens with 20 samples.

Results

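The genes described here are 7 negative-feedback genes of the ERK pathway: the phosphatase genes DUSP4, DUSP5 and DUSP6, the Sprouty genes SPRY2 and SPRY4, and the Sprouty-related genes SPRED1 and SPRED2. Their H3K4me3 was read from every peak lying within 5 kb of 1 transcription start per gene, in GRCh37 coordinates. That gave 137 of the 306884 peaks in 10 lists, 12 to 16 per library, and 7 of 31428 regions formed by merging peaks of all libraries. For SPRY4, 2 regions touched these 5 kb, and only the region with most bases there was used. WM164 is a human melanoma cell line with a mutant BRAF kinase, and every group was made from it. Resistant cells had spent over 90 days in dabrafenib, a BRAF inhibitor, at 50 nM, and colony cells 45 days at that dose, with the drug renewed every 3 days. Cells overexpressing NRAS Q61K, an activated RAS protein that signals upstream of BRAF, have as control cells overexpressing GFP, and neither is labelled with a drug. Parental cells had received the vehicle DMSO for the last 3 days. Each of these 5 groups has 2 libraries. The sources used here give neither the vector and its promoter nor whether the overexpressing cells were 1 clone, nor whether the libraries of a pair came from separate cultures. The p-values therefore measure only the spread between these libraries, which may be technical.

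The ERK pathway passes a signal through RAS, RAF and MEK to the kinase ERK, and ERK output switches on genes whose products damp the same pathway. The dual-specificity phosphatases act at the end of the chain by removing phosphate from ERK, DUSP6 mainly in the cytoplasm and DUSP4 and DUSP5 in the nucleus. Sprouty and SPRED proteins act further up, between receptors and RAF, and SPRED1 is known to bring the RAS inhibitor neurofibromin to the membrane. In BRAF-mutant melanoma, RNA of DUSP6 and SPRY4 is widely used as a readout of ERK output. H3K4me3, trimethylation of histone H3 at lysine 4, sits around the starts of active genes, and the length of sequence it covers differs widely between genes.

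Promoter sequences are given for SPRY4 and DUSP6, whose H3K4me3-covered length differed between drug-treated and parental cells, and for SPRED1, which passed the threshold in none of the 5 comparisons. They are RefSeq sequences of GRCh38.p14, from 250 bases before to 50 after the start, printed along the gene's own strand with CG dinucleotides in capitals, since H3K4me3 is known to form over CG-rich promoters. SPRY4 lies at chr5:142324198-142324497 on the minus strand, DUSP6 at chr12:89352452-89352751 on the minus strand and SPRED1 at chr15:38252586-38252885 on the plus strand.
SPRY4: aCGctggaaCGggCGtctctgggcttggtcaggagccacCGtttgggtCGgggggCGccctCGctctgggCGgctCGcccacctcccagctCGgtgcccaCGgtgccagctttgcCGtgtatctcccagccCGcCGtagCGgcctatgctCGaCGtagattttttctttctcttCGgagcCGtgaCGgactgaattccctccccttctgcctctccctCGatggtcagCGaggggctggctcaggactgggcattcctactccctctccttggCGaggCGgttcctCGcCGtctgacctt
DUSP6: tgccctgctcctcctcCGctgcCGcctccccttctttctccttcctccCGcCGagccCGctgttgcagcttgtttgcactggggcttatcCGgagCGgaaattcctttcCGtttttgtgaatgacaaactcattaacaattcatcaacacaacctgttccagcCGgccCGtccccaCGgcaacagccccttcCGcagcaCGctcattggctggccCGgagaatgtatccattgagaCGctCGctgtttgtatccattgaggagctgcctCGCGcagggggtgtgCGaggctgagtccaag
SPRED1: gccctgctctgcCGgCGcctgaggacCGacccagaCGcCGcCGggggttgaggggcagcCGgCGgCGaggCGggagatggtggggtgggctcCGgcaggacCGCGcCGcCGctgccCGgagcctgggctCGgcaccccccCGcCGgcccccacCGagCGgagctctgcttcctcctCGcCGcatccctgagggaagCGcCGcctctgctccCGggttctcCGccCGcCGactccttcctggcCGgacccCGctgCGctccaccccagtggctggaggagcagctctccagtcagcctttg
The SPRY4 sequence holds 26 CG dinucleotides, the DUSP6 sequence 19 and the SPRED1 sequence 32, against a median of 14 over 35116 promoters of the same length. All 3 thus lie above the median promoter, and SPRED1 has the most. RefSeq promoters were found for 5 of the 7 genes, 8 promoters in all, because SPRY2 has 3 and SPRED2 has 2. Both strands were searched for CCGGAA, a core bound by ETS factors, and for TGANTCA, the AP-1 motif, since both families are known effectors of ERK. CCGGAA was found in 1 of the 8, a promoter of SPRY2, and in 17.2% of all promoters. TGANTCA was found only in 1 promoter of SPRED2, with 2 matches, and in 7.71% of all promoters. The letters of neither motif are in the 3 sequences above.

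The deposited lists hold peak positions and peak statistics but no read counts, so the sequencing depth behind a value is unknown and no interval for counting error can be given. Lists were shortest in resistant cells (19407 and 19116 peaks) and colony cells (21421 and 21586), and longer in NRAS Q61K (40718 and 37722), GFP (41899 and 45540) and parental cells (29331 and 30144). The shortest peak in a list was 255 and 256 bp in resistant, 282 and 284 bp in colony, 153 and 151 bp in NRAS Q61K, 142 and 153 bp in GFP and 202 and 180 bp in parental libraries. List length and shortest peak thus move with the drug groups, and their part in the results below was not tested. Markers of the cell type and other genes of the pathway were not analysed here, because no GRCh37 annotation was used.

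All 7 genes carried H3K4me3 near the start in all 10 libraries, and none was gained or lost in any group. Of all merged regions, 38.5% had a peak in all 10 libraries. The 7 genes also kept a peak in every library within 1 kb of the start, when only peaks whose −log10 q reached 10 were kept, and with lists of equal length. What differed between groups was how far the mark extended. The mark lay mostly downstream of the start. Peaks touching the 5 kb on either side of the start were followed to their far edge, and peaks farther out were left out. Over the 10 libraries this edge lay a median of 9017 bp downstream of the start for DUSP4, 10155 bp for SPRY4, 6878.5 bp for SPRY2, 6375 bp for DUSP6, 6303 bp for SPRED1 and 4225.5 bp for DUSP5. SPRED2 alone extended farther upstream, to a median of 5697.5 bp, than downstream, at 3270.5 bp, with a separate upstream peak in all 10 libraries. The summit of the strongest peak lay a median of 3550 bp downstream of the start at DUSP4, 2117 bp at DUSP6, 2095.5 bp at SPRY4, 1298.5 bp at SPRY2, 1197.5 bp at SPRED1 and 431.5 bp at SPRED2. At DUSP5 its median position was −584.5 bp, upstream of the start. The start itself was under a peak in all libraries for SPRY2, SPRY4, SPRED1 and SPRED2, in 8 libraries for DUSP6 and 7 for DUSP5. At DUSP4 it fell in a gap between an upstream and a downstream peak in all but 3 libraries.

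**Figure D1:**
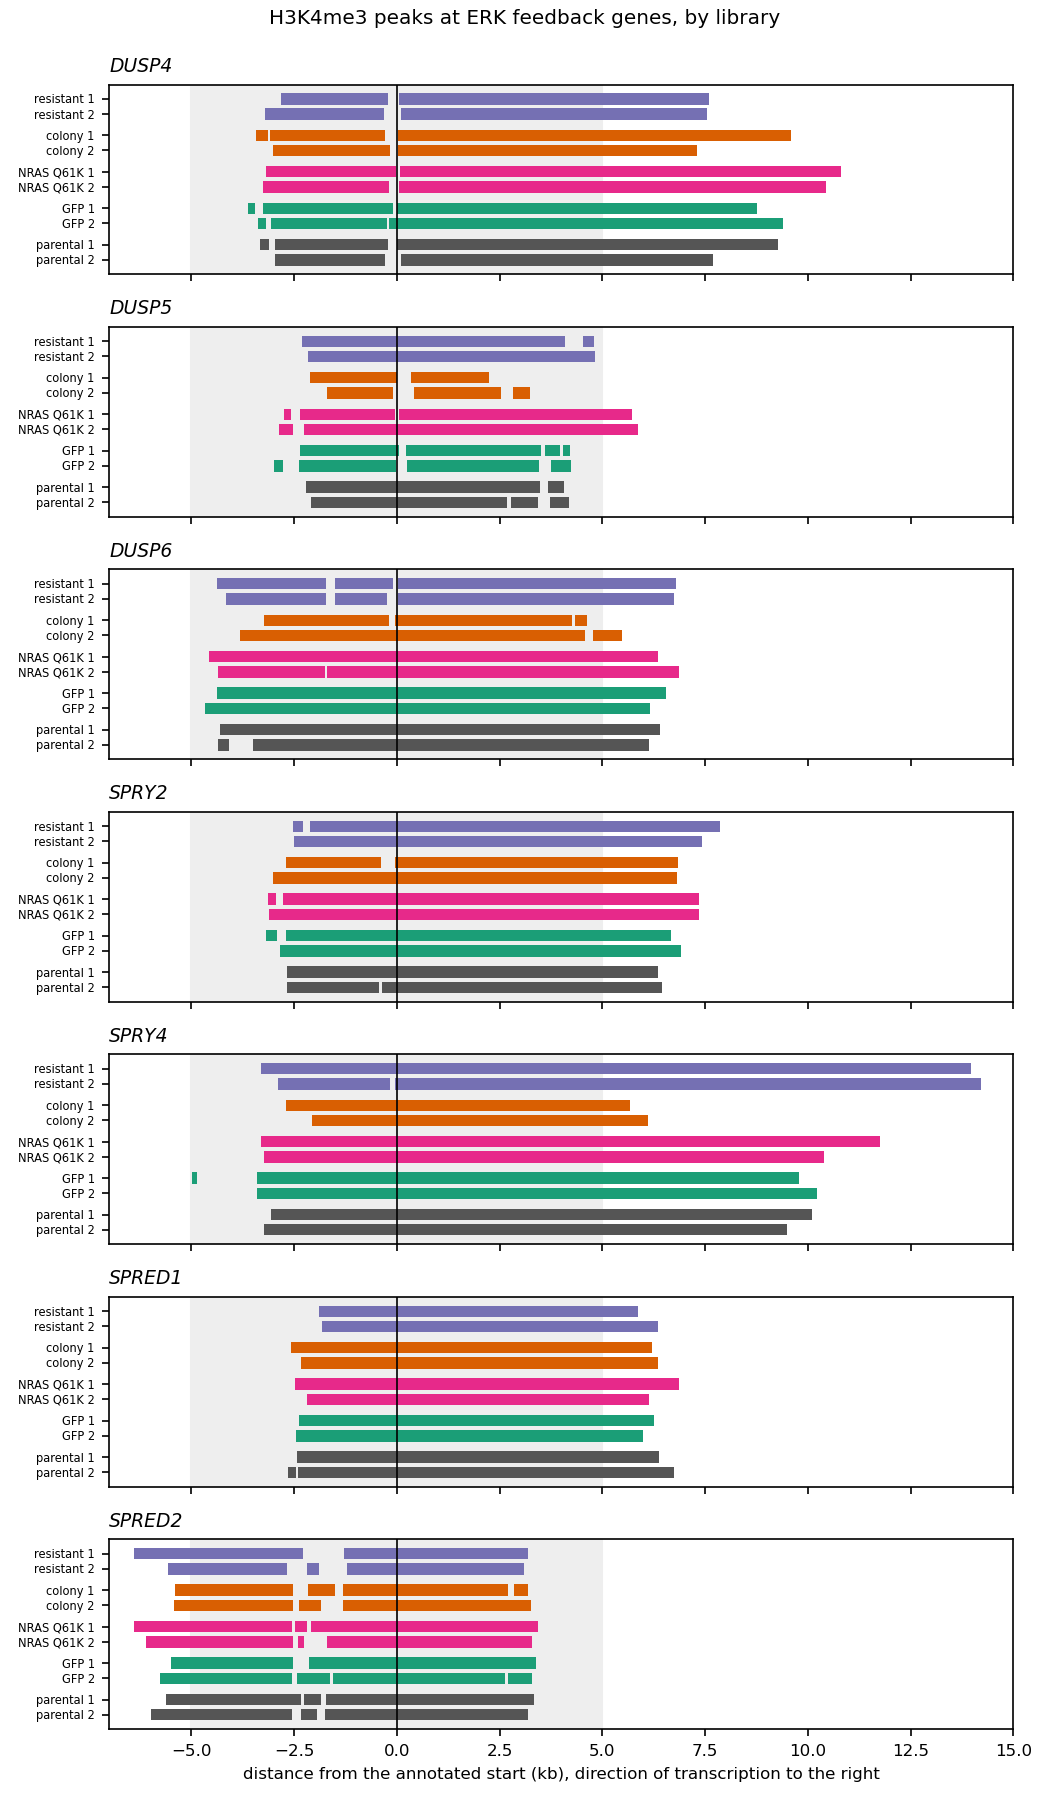
H3K4me3 peaks that touch the 5 kb window around each start, 1 row per library, against distance from the start in kb with transcription running to the right (vertical line, start; grey, window). The SPRY4 peaks shown end 13960 and 14210 bp downstream of the start in resistant libraries, 5659 and 6099 bp in colony libraries, and 10094 and 9483 bp in parental libraries. Peaks that lie wholly outside the window are not shown.

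The unit compared between groups was covered length, the number of bases under peaks in the merged region that holds the gene's start. Neighbouring transcripts share some of these regions, as RefSeq places SPRY4-IT1 within SPRY4, SPRY4-AS1 next to it, POC1B-DUSP6 over DUSP6 and DUSP5-DT next to DUSP5, and peak lists do not tell them apart. Less covered length can mean fewer marked cells or less mark per cell, which cannot be told apart here. Among the 12087 regions covered in all libraries, 6 of the 7 genes were longer than at least 97.7% in every library. DUSP5 was the exception, as it ranked above 97.7% and 98.2% of them in resistant libraries, 75.9% and 76.9% in colony, 98.5% and 98.5% in NRAS Q61K, 93.8% and 94.2% in GFP and 94.0% and 94.8% in parental libraries.

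Of the phosphatase genes, DUSP5 varied most. DUSP5 (chromosome 10, 112254640 to 112264893) had 6676 and 7007 bp under peaks in resistant, 4017 and 4139 bp in colony, 9097 and 8654 bp in NRAS Q61K, 6282 and 6244 bp in GFP and 6084 and 5909 bp in parental libraries. The order of the groups was NRAS Q61K, resistant, GFP, parental and colony, with no overlap between neighbours. DUSP6 (chromosome 12, 89739345 to 89750959) had 10802 and 10463 bp in resistant, 7641 and 9110 bp in colony, 11418 and 11162 bp in NRAS Q61K, 11180 and 11343 bp in GFP and 11036 and 9922 bp in parental libraries. Only colony stood apart there, below all other libraries, while resistant lay between the parental libraries and NRAS Q61K overlapped GFP. DUSP4 (chromosome 8, 29196885 to 29211890) had 12342 and 12227 bp in resistant, 12620 and 11801 bp in colony, 14267 and 14009 bp in NRAS Q61K, 13680 and 13951 bp in GFP and 13490 and 12563 bp in parental libraries. Resistant DUSP4 lay inside the spread of colony and just under parental, and NRAS Q61K was the longest group.

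Of the Sprouty genes, SPRY4 had the wider range over libraries. SPRY4 (chromosome 5, 141689561 to 141708023) had 18065 and 16985 bp in resistant, 8824 and 8982 bp in colony, 16190 and 15664 bp in NRAS Q61K, 15508 and 15180 bp in GFP and 14700 and 14457 bp in parental libraries. No 2 groups overlapped, with resistant the longest and colony far below the other 4 groups. SPRY2 (chromosome 13, 80906648 to 80918262) had 10220 and 9933 bp in resistant, 9841 and 10689 bp in colony, 10784 and 10830 bp in NRAS Q61K, 10603 and 10649 bp in GFP and 9733 and 9324 bp in parental libraries. Resistant SPRY2 lay within the spread of the colony pair, and parental was the lowest group.

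The SPRED genes kept to narrow ranges, from 8169 to 9742 bp for SPRED1 and 7868 to 9644 bp for SPRED2. So did SPRY2, from 9324 to 10830 bp. SPRED1 (chromosome 15, 38542398 to 38553332) had 8407 and 8169 bp in resistant, 8790 and 8697 bp in colony, 9742 and 8745 bp in NRAS Q61K, 8993 and 9124 bp in GFP and 8802 and 9343 bp in parental libraries. SPRED2 (chromosome 2, 65656235 to 65666337) had 8604 and 8217 bp in resistant, 7868 and 7993 bp in colony, 9644 and 8978 bp in NRAS Q61K, 8834 and 8780 bp in GFP and 9137 and 8761 bp in parental libraries. Colony was the lowest group at SPRED2, and resistant the lowest at SPRED1.

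**Figure D2:**
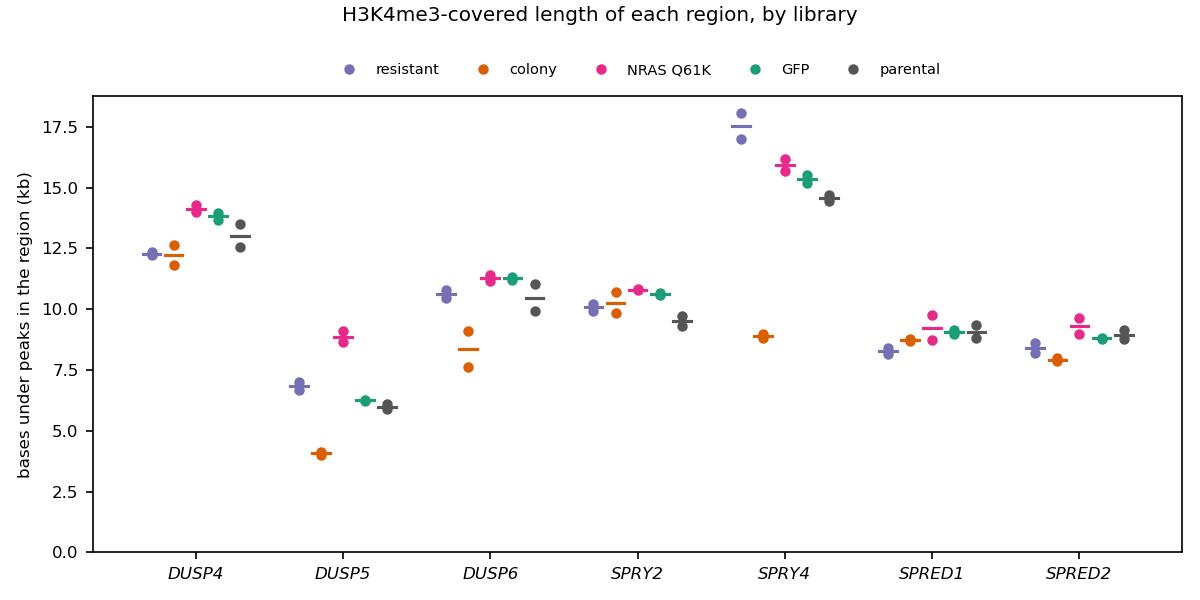
Bases under H3K4me3 peaks, in kb, in the region of each gene (dots, libraries; dashes, group means, n = 2). Colony dots lie below the dots of the other 4 groups at DUSP5 (4017 and 4139 bp), DUSP6, SPRY4 (8824 and 8982 bp) and SPRED2. NRAS Q61K dots lie above those of the other 4 groups at DUSP5 (9097 and 8654 bp), and by less at DUSP4 and SPRY2.

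Groups were compared with limma over 23153 regions, after centring each library on its median, so a change is relative to the other regions of the same libraries. Changes are on the scale of log2(bp + 200), with the standard error and the Benjamini-Hochberg adjusted p over all regions. With 2 libraries a group, an exact permutation test of 1 region cannot give a two-sided p below 0.333, so none was run. Colony and resistant cells were both set against the same parental libraries, so those comparisons are not independent of each other.

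In colony cells, after 45 days of BRAF inhibition, H3K4me3 was narrower than in parental cells at SPRY4, DUSP5, DUSP6 and SPRED2. SPRY4, an inhibitor of signalling between RAS and RAF, changed by a log2 of −0.72 (SE 0.04, limma adjusted p = 2.19e-05), that is to 8903 ± 112 bp in colony cells, against 14578.5 ± 172 bp in parental cells (SD, n = 2 each). The nuclear ERK phosphatase DUSP5 changed by −0.56 (SE 0.05, adjusted p = 0.000171) and the cytoplasmic ERK phosphatase DUSP6 by −0.35 (SE 0.07, adjusted p = 0.00709). SPRED2 changed by −0.20 (SE 0.04, adjusted p = 0.00725). Thus 4 of 7 genes became narrower, against 16.7% of all regions, and 0 became wider, against 4.29%; at an unadjusted p under 0.05 the counts are 5 and 0, against 22.5% and 8.1% of all regions. The median change was −0.20 for the 7 genes and −0.05 for all regions. DUSP4 (−0.12, adjusted p = 0.142), SPRED1 (−0.08, adjusted p = 0.464) and SPRY2 (0.08, adjusted p = 0.309) did not pass. SPRED1 and DUSP4 rested on single libraries: SPRED1 passed without parental 1 (−0.18, adjusted p = 0.0499) and had the opposite sign without parental 2 (0.02), and DUSP4 passed without colony 1 (−0.18, adjusted p = 0.042). SPRY4 and DUSP5 passed in all 15 alternative settings, DUSP6 in 14 and SPRED2 in 12; the last 2 did not pass when the fit held only these 2 groups (adjusted p = 0.0848 and 0.0912).

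In resistant cells, after over 90 days at this dose, 4 genes were wider than in parental cells and none narrower. SPRY4 changed by 0.46 (SE 0.04, limma adjusted p = 0.00013), with 17525 ± 764 bp in resistant cells and 14578.5 ± 172 bp in parental cells (SD, n = 2 each). DUSP5 changed by 0.38 (SE 0.05, adjusted p = 0.000742), with 6841.5 ± 234 bp in resistant cells and 5996.5 ± 124 bp in parental cells. SPRY2 changed by 0.28 (SE 0.05, adjusted p = 0.00332) and DUSP6 by 0.22 (SE 0.07, adjusted p = 0.0386). Of all regions, 7.93% became wider and 20.6% narrower, and the median change was 0.22 for the 7 genes against −0.07 for all regions. At an unadjusted p under 0.05, 6 of the 7 genes were wider and 0 narrower, against 11.7% and 26% of all regions, but without centring only 2 were wider. SPRED2 (0.11, adjusted p = 0.0632), DUSP4 (0.11, adjusted p = 0.124) and SPRED1 (0.07, adjusted p = 0.498) did not pass, although SPRED1 (0.17, adjusted p = 0.0422) and SPRED2 (0.14, adjusted p = 0.0385) did without parental 2, and SPRED1 was at −0.03 without parental 1. DUSP6 lost its call without any 1 of the 4 libraries (adjusted p between 0.103 and 0.138) and passed in 7 of 15 alternative settings, against 15 for SPRY4 and DUSP5 and 14 for SPRY2.

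Part of this result depends on the centring. Over the shared regions the median log2 covered length was −0.19 and −0.22 in resistant libraries and 0.05 and −0.07 in parental libraries, relative to the mean of all libraries. Without centring the median change of all regions was −0.26 rather than −0.07, and 882 regions were wider and 7279 narrower, in place of 1836 and 4779. SPRY4 (0.26, limma adjusted p = 0.00204) and DUSP5 (0.18, adjusted p = 0.0158) were still wider in resistant than in parental cells. SPRY2 (0.08, adjusted p = 0.24) and DUSP6 (0.02, adjusted p = 0.953) were not, and DUSP4 (−0.08), SPRED1 (−0.13) and SPRED2 (−0.09) had the opposite sign without passing. In bases, both resistant libraries lay above both parental ones at SPRY4, DUSP5 and SPRY2, below both at DUSP4, SPRED1 and SPRED2, and between them at DUSP6.

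Resistant cells set directly against colony cells had wider H3K4me3 at 6 of the 7 genes. SPRY4 changed by 1.18 (SE 0.04, limma adjusted p = 1.07e-06), DUSP5 by 0.94 (SE 0.05, adjusted p = 7.34e-06) and DUSP6 by 0.56 (SE 0.07, adjusted p = 0.000483). These 3 also passed without centring, at 0.96, 0.72 and 0.34. SPRED2 (0.30, adjusted p = 0.000646), DUSP4 (0.23, adjusted p = 0.00984) and SPRY2 (0.20, adjusted p = 0.0183) passed only with it, and without it stood at 0.08, 0.009 and −0.03. SPRED1 (0.15, adjusted p = 0.17) did not pass. The changes of SPRY2 and SPRED1 lay above those of 51.6% and 48.7% of all regions, so near the middle. Of all regions, 11% became wider and 11.5% narrower, and the median change was 0.30 for the 7 genes and 0.17 for all regions. At an unadjusted p under 0.05, 6 genes were wider and 0 narrower, against 15.4% and 15.8% of all regions. A fit of only these 2 groups called 9368 regions wider and 2581 narrower, and 4 of the 7 genes wider. Without centring the median of all regions was −0.06, with 1420 regions wider and 5305 narrower in place of 2540 and 2662. SPRY2 lost its call without colony 1 (adjusted p = 0.106), resistant 1 (0.0904) or resistant 2 (0.078), and DUSP4 without resistant 2 (0.0615), and they passed in 9 and 10 of 15 alternative settings. The direct comparison shares all its libraries with the previous ones.

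NRAS Q61K cells, in which RAS signalling is driven from above BRAF, passed the threshold against GFP cells at DUSP5 only. DUSP5 changed by 0.54 (SE 0.05, limma adjusted p = 0.00186), with 8875.5 ± 313 bp in NRAS Q61K cells and 6263 ± 26.9 bp in GFP cells (SD, n = 2 each). The other 6 genes had changes of 0.05 to 0.12 and did not pass. For SPRY4 the change was 0.10 with a 95% confidence interval of 0.004 to 0.20 (adjusted p = 0.255), and for DUSP6 it was 0.05 with an interval of −0.10 to 0.20 (adjusted p = 0.781). Thus 1 of 7 genes became wider, against 5.06% of all regions, and 0 became narrower, against 2.18%; at an unadjusted p under 0.05 the counts are 3 wider and 0 narrower, against 12% and 5.76% of all regions. The median change was 0.08 for the 7 genes and 0.05 for all regions. DUSP5 passed without each of the 4 libraries in turn. It did not pass in a fit of only these 2 groups (adjusted p = 0.0526), where no region at all passed.

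GFP cells, the control for the transgene, were not distinguished from parental cells at any of the 7 genes. The count was 0 narrower, against 1.69% of all regions, and 0 wider, against 2.67%, with limma. At an unadjusted p under 0.05, 1 gene was narrower and 0 wider, against 7.89% and 8.01% of all regions. That gene was SPRED2 (−0.15, SE 0.04, adjusted p = 0.075), which passed with 50 bp added in place of 200. The other changes lay between −0.13 and 0.03, and the median was −0.05 for the 7 genes and −0.03 for all regions. Without centring the median of all regions was 0.09, with 980 regions wider and 256 narrower in place of 618 and 392, and still none of the 7 genes passed.

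**Figure D3:**
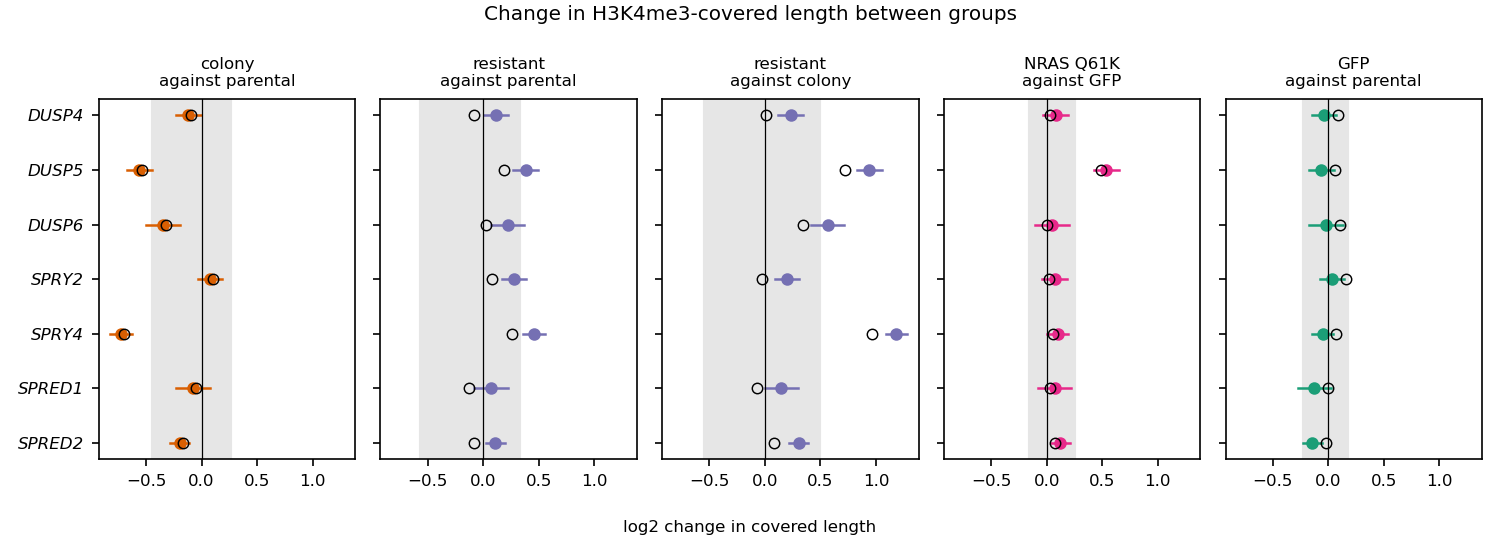
Log2 change in covered length of each gene in 5 comparisons (filled dots with 95% confidence intervals, libraries centred; open circles, no centring), over the 5th to 95th percentile of 1306 regions with a mean covered length of 5 kb or more (grey). SPRY4 and DUSP5 lie outside the grey band in all 3 drug comparisons when centred, and DUSP5 (0.54) lies outside it for NRAS Q61K against GFP.

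Broad regions are a closer yardstick than all regions, since the 7 genes are themselves broad. Over the 1306 broad regions the middle 90% of changes ran from −0.45 to 0.27 for colony against parental cells, from −0.57 to 0.33 for resistant against parental cells and from −0.55 to 0.49 for resistant against colony cells. SPRY4 (−0.72, 0.46 and 1.18) and DUSP5 (−0.56, 0.38 and 0.94) lay outside in each. DUSP6 lay outside only for resistant against colony cells (0.56), and the other 4 genes lay inside in all 3. For NRAS Q61K against GFP cells the range was −0.16 to 0.25, with DUSP5 (0.54) above it.

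Edges and reach are given for peaks that touch the 5 kb window, so marked bases farther out in the same region do not count. At SPRY4 and DUSP5 the downstream edge moved more than the upstream edge, while at DUSP6, SPRED2 and SPRED1 the upstream edge moved too. At SPRY4 these peaks reached 13960 and 14210 bp downstream in resistant, 5659 and 6099 bp in colony, 11762 and 10398 bp in NRAS Q61K, 9780 and 10216 bp in GFP and 10094 and 9483 bp in parental libraries. The region held 14700 and 14457 bp in parental libraries, of which these peaks made 13165 and 12712 bp. In colony libraries it held 8824 and 8982 bp against 8350 and 8163 bp, and in resistant 1 18065 bp against 17266 bp. In those libraries the SPRY4 mark went on beyond the downstream edges given. Its upstream edge moved less, lying 3098.5 ± 292 bp before the start in resistant, 2376.5 ± 443 bp in colony and 3149 ± 112 bp in parental cells (SD, n = 2 each). DUSP5 reached 4791 and 4830 bp downstream in resistant, 2246 and 3227 bp in colony, 5731 and 5864 bp in NRAS Q61K, 4220 and 4231 bp in GFP and 4071 and 4190 bp in parental libraries. Its upstream edge lay 2245.5 ± 98.3 bp before the start in resistant, 1903.5 ± 285 bp in colony and 2152 ± 86.3 bp in parental cells. The downstream reach of DUSP6 was 6788 and 6751 bp in resistant, 4619 and 5483 bp in colony and 6398 and 6123 bp in parental libraries. By these peaks, resistant libraries reached farther than both parental ones at all 3 genes, and colony libraries less far. At DUSP6, however, parental 1 had 11036 bp covered in the region and only 10715 bp in its 1 window peak. Its mark thus went on beyond 6398 bp, and whether resistant libraries reached farther at DUSP6 is not settled. The order of reach at SPRY4 is not settled either, since the mark in parental and colony libraries went on beyond the edges given. Upstream, DUSP6 was marked out to 4268.5 ± 144 bp in resistant, 3535 ± 410 bp in colony and 4339 ± 32.5 bp in parental cells. At SPRED2 the upstream edge lay at 5975 ± 584 bp in resistant, 5415.5 ± 12 bp in colony and 5799.5 ± 250 bp in parental cells, and the downstream edge at 3141 ± 80.6 bp in resistant, 3224 ± 60.8 bp in colony and 3261.5 ± 112 bp in parental cells. Both edges of these peaks at SPRED1 were closest to the start in resistant cells among the drug and parental groups. They lay at 1857 ± 63.6 bp upstream, against 2464.5 ± 173 bp in colony and 2542.5 ± 158 bp in parental cells. Downstream they lay at 6114.5 ± 342 bp, against 6278 ± 107 bp in colony and 6555 ± 262 bp in parental cells. In resistant 1, however, the SPRED1 region held 8407 bp and its 1 window peak 7776 bp, so its mark went on farther downstream. By these peaks, parental libraries had the shortest downstream reach at SPRY2, with 7852 and 7434 bp in resistant, 6837 and 6810 bp in colony, 7361 and 7351 bp in NRAS Q61K, 6670 and 6920 bp in GFP and 6346 and 6451 bp in parental libraries. In parental 1, however, the SPRY2 region held 9733 bp and its 1 window peak 9022 bp, and in colony 2 10689 and 9821 bp. The mark went on beyond the edges given there, so the order of reach at SPRY2 is not settled. Within 5 kb downstream of the start, SPRY4 was covered without a gap in every library, and inside that window only the upstream side differed, with 3305 and 2774 bp covered in resistant, 2690 and 2063 bp in colony and 3070 and 3228 bp in parental libraries.

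The strength of the SPRY4 peak also stood apart in colony cells. Strength was the authors' fold of the summit over local background, which is used here only to rank regions within a library, as the percentage of the 12087 shared regions whose strongest fold was lower. SPRY4 ranked above 99.96% and 99.98% of them in resistant libraries, 46.0% and 32.1% in colony, 99.7% and 99.5% in NRAS Q61K, 98.5% and 98.9% in GFP and 98.7% and 99.4% in parental libraries. It was thus near the top everywhere except in colony cells, where it was below the middle of the shared regions. DUSP5 ranked above 89.7% and 97.0% in resistant, 40.3% and 77.0% in colony, 81.8% and 70.8% in NRAS Q61K, 74.9% and 82.4% in GFP and 27.7% and 35.1% in parental libraries. Its rank was therefore lowest in parental cells, where its mark was longer than in colony cells, and highest in resistant cells. DUSP6 ranked above 94.6% and 99.3% in resistant, 76.8% and 91.2% in colony and 99.4% and 97.8% in parental libraries, so colony was the lowest group. SPRED1 ranked above 94.2% and 99.2% in resistant, 99.3% and 99.2% in colony and 99.5% and 99.3% in parental libraries, with 1 resistant library below the rest. SPRED2 ranked above 90.2% and 79.0% in resistant, 92.0% and 94.6% in colony and 89.2% and 76.0% in parental libraries, so its rank was highest in colony cells, where its mark was shortest. DUSP4 ranked above 85.8% and 95.5% in resistant, 82.9% and 93.6% in colony and 93.1% and 94.7% in parental libraries. SPRY2 ranked above 99.7% and 98.8% in resistant, 98.8% and 90.7% in colony and 96.8% and 97.8% in parental libraries. At both of these genes the colony ranks overlapped those of resistant and parental cells. These ranks are descriptions of 2 libraries a group, with no test.

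Within the fixed window of 5 kb on either side of the start, the covered bases of 4 genes were lower in both colony libraries than in both parental libraries and of 0 higher. For resistant against parental cells the counts were 3 lower and 1 higher, for resistant against colony cells 3 and 3, for NRAS Q61K against GFP cells 2 and 2, and for GFP against parental cells 0 and 5. The same count over all starts was not made here, so these numbers have no background to be read against. The 1 gene higher in resistant than in parental cells was DUSP5, with 6841.5 ± 234 bp in resistant and 5996.5 ± 124 bp in parental cells.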

How the data were processed

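The authors deposited 1 peak list per H3K4me3 library, called separately and not on pooled samples, with start and end positions in GRCh37 style. Per the submitters' processing notes, MACS2 2.1.2, deepTools 2.5.4, SAMtools and BWA were used, with GRCh37 or hg19 as build. Reads were single, of 50 bp, per the labels' protocols. The deposited score repeats the −log10 q-value and was not used. The deposited fold, a ratio of summit to local background, and the −log10 q-value the authors deposited with it hold within 1 list only, and ranked or filtered its peaks. The −log10 p-value in the deposited lists was not used. The sources used here do not say how the 10 inputs entered the calling, and their data were not used.

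Peaks on 22 autosomes and X within 1000 bp of each other, over all libraries, were joined to regions. Bases under peaks were tested as log2(bp + 200) in limma 3.58.1 (R 4.3.3), with each library centred on its median over regions present in all 10, regions present in at least 2 libraries, 5 group means, a trended eBayes step and a threshold of 0.05. The lists give no read counts, so depth and counting error are unknown. Regions and figures were made in Python 3.11.15 with pandas 2.3.3, numpy 2.4.6 and matplotlib 3.10.9. On simulated data of 23153 regions, the test was checked for sign and false calls. All 7 genes are named, whatever their values. Genes, lists and tests were chosen with earlier results of these data known. Strands came from RefSeq for 5 genes and from general knowledge for DUSP4 and DUSP5, and coordinates were not converted between builds.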

Additional observations from a re-analysis of the deposited data

Results flagged for a closer look

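Colony cells after 45 days in dabrafenib and resistant cells after more than 90 days differ in both time and state, which cannot be told apart. Both groups share the parental libraries as baseline. Covered length differed between them at 6 of the 7 genes, by limma's test of resistant against colony cells. Of all regions, 11% were wider and 11.5% narrower in that test. The difference in log2 covered length was 1.18 at SPRY4, 0.94 at DUSP5, 0.56 at DUSP6, 0.30 at SPRED2, 0.23 at DUSP4 and 0.20 at SPRY2. The median of all regions was 0.17, so SPRY2 lay near the middle of them. SPRY4 and DUSP5 lay on opposite sides of parental cells, wider in resistant and narrower in colony cells. DUSP6 was narrower than parental in colony cells, but was called wider in resistant cells in only 7 of 15 alternative settings. In bases, resistant DUSP6 (10802 and 10463 bp) lay between the parental libraries (11036 and 9922 bp). Without centring the differences at SPRED2, DUSP4 and SPRY2 did not pass.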

How the results depend on the processing

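Over 15 alternatives for each comparison, 475 values for single genes kept their direction and their side of the threshold, 25 lost a call, 7 gained one and 18 changed sign, of which 1 also lost its call (SPRY2, resistant against colony cells, no centring). SPRY4 and DUSP5 passed in all 15 in the 3 drug comparisons, and DUSP5 in 14 for NRAS Q61K against GFP. Without centring, the genes wider in resistant than in parental cells numbered 2 and those wider than in colony cells 3. Over all 23153 regions those counts were 882 and 1420. In fits of only the 2 groups, colony against parental cells had 2 narrower genes, with 3004 of all regions narrower. NRAS Q61K against GFP cells had 0 wider genes in such a fit, and 0 wider regions. With 50 bp added, GFP against parental cells had 1 narrower gene, with 371 of all regions narrower. The fit of 2 groups called 9368 regions wider in resistant against colony cells, in place of 2540. The cause was not tested. With 1 library left out, the median change of the 7 genes in colony against parental cells was −0.23 to −0.17 (all regions −0.09 to −0.04). In resistant against parental cells it was 0.20 to 0.23 (all regions −0.09 to 0.006). In resistant against colony cells it was 0.29 to 0.32 (all regions 0.16 to 0.21). In NRAS Q61K against GFP cells it was 0.06 to 0.12 (all regions 0.04 to 0.05). In GFP against parental cells it was −0.10 to −0.02 (all regions −0.04 to −0.02). With the replicate number as a block, 4 genes were narrower in colony against parental cells, with 3713 of all regions narrower. Wider genes numbered 4, 6 and 1 in resistant against parental, resistant against colony and NRAS Q61K against GFP cells. Over all regions 1768, 2453 and 1089 were wider there. The count was 0 in GFP against parental cells, with 284 regions narrower and 324 wider. The gene counts were the same without the block. Correlations of same-numbered libraries' deviations lay between −0.0206 and 0.0286, so these libraries shared almost no deviation in covered length. Whether they were grown or prepared together cannot be told from these values.

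Sign changes in GFP against parental cells were at DUSP5 with −log10 q reaching 10 (0.096), lists of equal length (0.018) and no centring (0.061), and at DUSP6 under these (0.026, 0.039 and 0.10) and with only overlapping peaks merged (0.011). SPRY2 was at −0.0013 with equal lists, and SPRY4 at 0.073 and DUSP4 at 0.084 without centring. Without centring, resistant against parental cells gave −0.088 for SPRED2, −0.082 for DUSP4 and −0.13 for SPRED1, and resistant against colony cells −0.025 for SPRY2 and −0.076 for SPRED1. Leaving out 1 library moved SPRED1 between −0.18 and 0.023 for colony against parental cells and between −0.032 and 0.17 for resistant against parental cells, and DUSP6 between −0.042 and 0.0026 for GFP against parental cells. The window counts that follow were not made over all starts, so they have no background and show only how the counts move with the setting. Counts of genes without overlap in the window moved with −log10 q reaching 10 (colony against parental 1 higher, resistant against colony 1 lower, NRAS Q61K against GFP 1 lower and 1 higher), with a 2 kb window (colony against parental 2 lower, resistant against parental 0 higher, resistant against colony 1 higher, NRAS Q61K against GFP 1 and 1, GFP against parental 1 lower and 2 higher) and with a 10 kb window (colony against parental 1 higher, resistant against parental 2 higher, resistant against colony 1 lower).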
